A study of Mus musculus with 6 samples.

Results

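The S100 proteins are small calcium-binding proteins with paired EF-hand loops that work mostly as dimers. Within cells they change the activity of partner proteins such as annexins and myosin, and several are also released and bind receptors on other cells. S100A8 and S100A9, which together form calprotectin, are among the most abundant cytosolic proteins of neutrophils and are widely used to follow myeloid cells in injured tissue. Here 9 S100 genes (S100a1, S100a4, S100a6, S100a8, S100a9, S100a10, S100a11, S100a13 and S100a16) were taken by name from the 15454 rows of the count table and the 21948 rows of the FPKM table (fragments per kilobase of transcript and per unit of sequencing depth). All 9 were among the 12411 genes with enough counts for a test.

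The livers came from wild-type male C57BL/6 mice aged 8 to 10 weeks. Every animal had undergone warm ischemia of 75% of the liver followed by reperfusion, so both groups shared the surgery. In the I/R group, 3 mice received the vehicle solution, and in the I/R+Rk2 group 3 mice received ginsenoside Rk2, a saponin of processed ginseng, dissolved in that vehicle. Both were given 2 days before surgery and again as perfusion began, and the study describes the sequenced treated livers as its higher-dose group. Sham-operated livers were not analysed here, so the level of any S100 gene in an uninjured liver was not measured. Whole liver was sequenced, and in such tissue a smaller number of cells of a type and less RNA in each cell cannot be told apart. The libraries held 16809613 to 35618074 counts. Levels are given as CPM, counts scaled to a common library total after trimmed mean of M values normalisation. In vehicle livers 12 hepatocyte markers summed to 79669 to 89989 CPM, against 110144 to 132542 CPM in treated livers. Alb took most of that sum in each liver, with means of 49227 CPM without Rk2 and 80119 CPM with it. Of the 12 log2 ratios, 10 were above 0 and 2 below, so the higher sum does not mean that every marker rose.

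Of the 9 S100 genes, 5 were past the threshold (a fold difference above 2 with an edgeR adjusted p below 0.05), and all 5 were lower in I/R+Rk2: S100a4, S100a6, S100a8, S100a9 and S100a11. Across all genes tested, 14.6% were past it in either direction, 11.4% lower and 3.17% higher, so that 78.3% of those past it were lower (89.7% with limma on log2(FPKM + 1) and a mean FPKM of at least 1). S100a10 was lower by a smaller fold, S100a1 and S100a13 were higher by less than the fold limit, and S100a16 did not pass. At an adjusted p below 0.05 alone, 8 of the 9 passed, where 43.9% of all genes did: 6 S100 genes were lower (23.7% of all genes) and 2 were higher (20.3%). The vehicle and treated livers did not overlap for those 8 genes, nor for 57.4% of all genes tested, with the treated livers lower for 6 (30.3% of all genes) and higher for 2 (27.1%). The median log2 ratio of I/R+Rk2 to I/R, from edgeR, was -1.42 for the 9 genes and -0.01 for all genes tested. Together the 9 genes took 0.0711% to 0.0914% of a library's counts in I/R and 0.0357% to 0.0433% in I/R+Rk2.

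**Figure D1:**
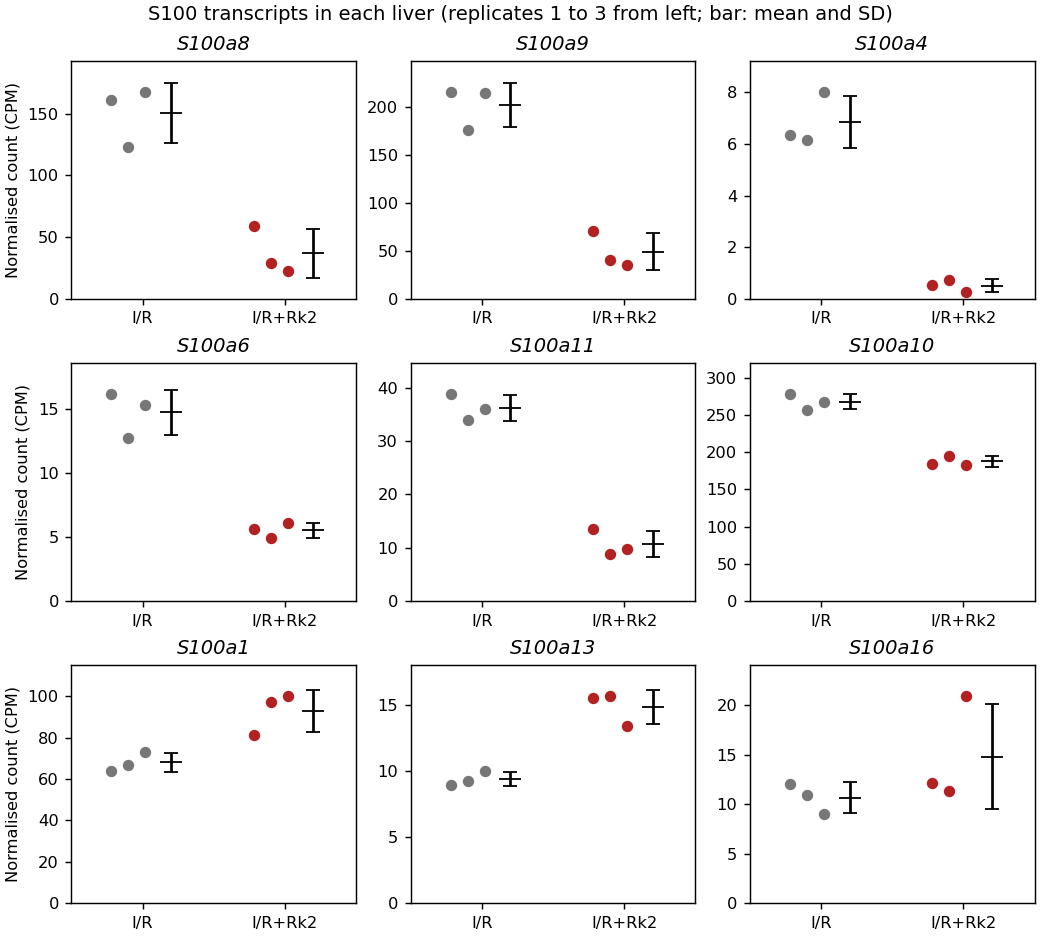
Normalised counts (CPM) of the 9 S100 genes in each liver, with I/R replicates 1 to 3 in grey and I/R+Rk2 replicates 1 to 3 in red from left to right, and the mean and SD of each group as a black bar. S100a8, S100a9, S100a4, S100a6, S100a11 and S100a10 lay lower in every treated liver, S100a1 and S100a13 lay higher, and the groups of S100a16 overlapped.

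The 9 genes lie in a pair of blocks on chromosome 3 (GENCODE M21, GRCm38). Their differences are given here in their order along it, and a link between position and direction was not tested. The first block spans 184.7 kb, from 90511034 to 90695721, and holds 7 of them. Read from its start, S100a1, S100a13 and S100a16 come first, with log2 ratios of 0.45, 0.67 and 0.47. For S100a16 the groups overlapped (adjusted p of 0.17 in edgeR), and its log2 ratio was 0.15 without I/R+Rk2 replicate 3. A gap of 60.6 kb separates S100a16 from S100a4, and from there to the end of the block S100a4, S100a6, S100a8 and S100a9 had log2 ratios of -3.64, -1.42, -2.03 and -2.04. The second block lies 2824.8 kb further on and holds S100a11 (-1.76) and S100a10 (-0.51). On the side of S100a1, the neighbours tested within 100 kb were Chtop (-0.08), Snapin (-0.08), Ilf2 (-0.07), Npr1 (0.91) and Ints3 (0.17), and of these Npr1 alone had an adjusted p below 0.05 (edgeR, 0.00636). Beside the second block Tchh was the other gene tested, and its log2 ratio was -2.45 (adjusted p of 0.00287 in edgeR). The window of neighbours was chosen after the values of the S100 genes had been seen.

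**Figure D2:**
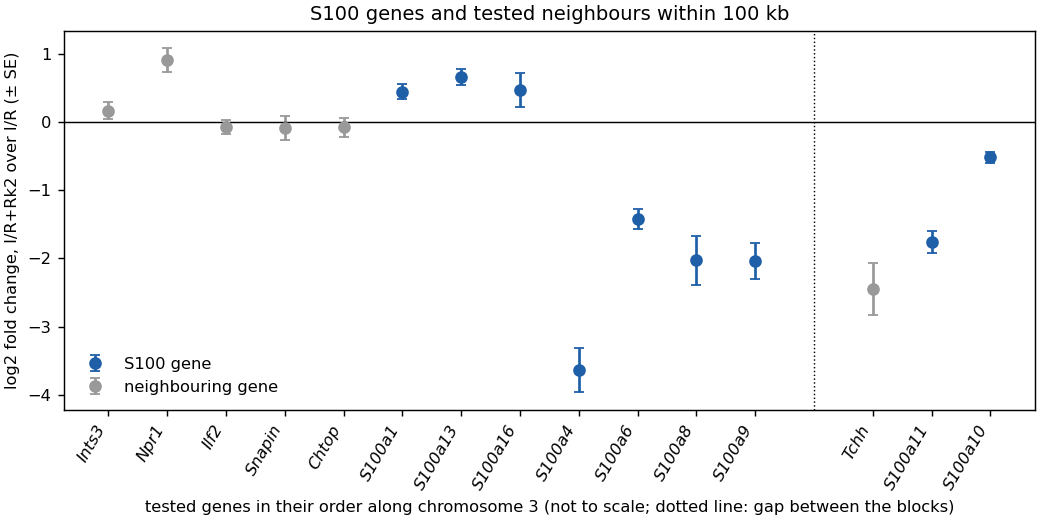
Log2 fold change of I/R+Rk2 over I/R with its standard error (vertical axis) for the 9 S100 genes in blue and the 6 other tested genes within 100 kb in grey, in their order along chromosome 3. S100a1, S100a13 and S100a16 lie above 0, though the groups of S100a16 overlapped, and the 4 S100 genes that follow them in the first block lie at -1.42 or below.

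The bases before the starts of some of these genes are shown so that their letters can be set side by side. They are the genes that fell furthest and the pair that was higher at an adjusted p below 0.05 in edgeR. RefSeq promoter windows (GRCm38.p6, 250 bases before to 50 bases after a start) were found for 8 of the 9 genes, with S100a16 holding a pair of windows and S100a10 none. The 250 bases before the start are printed 5′ to 3′ on the gene's own strand for S100a8 and S100a9, the subunits of calprotectin, for S100a4, which fell furthest, and for S100a11. Capitals mark matches, on either strand, to a TATA box (TATAAA), a GC box (GGGCGG), an AP-1 motif (TGANTCA), a C/EBP motif (TTNNGNAA) or a PU.1 motif (GAGGAAGT), and none of the matches overlapped another.
S100a8 (chr3:90668821-90669070, plus strand): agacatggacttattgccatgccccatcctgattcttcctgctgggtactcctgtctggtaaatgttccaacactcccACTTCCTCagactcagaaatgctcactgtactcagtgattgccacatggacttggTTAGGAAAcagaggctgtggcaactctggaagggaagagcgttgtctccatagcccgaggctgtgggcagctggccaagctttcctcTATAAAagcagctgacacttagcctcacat
S100a9 (chr3:90695722-90695971, minus strand): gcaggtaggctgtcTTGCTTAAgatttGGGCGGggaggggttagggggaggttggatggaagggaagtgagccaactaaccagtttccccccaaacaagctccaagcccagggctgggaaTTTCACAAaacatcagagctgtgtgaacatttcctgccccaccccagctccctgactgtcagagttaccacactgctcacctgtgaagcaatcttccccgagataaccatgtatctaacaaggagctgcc
S100a4 (chr3:90603520-90603769, plus strand): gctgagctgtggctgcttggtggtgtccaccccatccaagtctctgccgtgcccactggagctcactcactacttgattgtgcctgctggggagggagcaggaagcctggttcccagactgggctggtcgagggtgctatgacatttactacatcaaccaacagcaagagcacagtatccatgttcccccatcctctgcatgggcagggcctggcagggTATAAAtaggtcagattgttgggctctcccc
S100a11 (chr3:93520246-93520495, plus strand): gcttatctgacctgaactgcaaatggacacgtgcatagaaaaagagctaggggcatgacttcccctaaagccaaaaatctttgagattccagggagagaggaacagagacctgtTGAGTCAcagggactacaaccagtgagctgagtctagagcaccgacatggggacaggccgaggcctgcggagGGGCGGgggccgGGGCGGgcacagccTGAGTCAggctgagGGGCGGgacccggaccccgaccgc

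TATAAA lay 30 bases before the start of S100a8 and 31 bases before that of S100a4, and the match in S100a9 began at the annotated start itself. GENCODE begins S100a8 at 90668978, ahead of the RefSeq start at 90669071, so its TATAAA lies within the GENCODE span of the gene. Of 32851 windows of all genes, 13.6% held this motif. A match to the PU.1 motif, the site of a myeloid transcription factor, lay before S100a8 and just after the start of S100a4, against 3.2% of all windows. The C/EBP motif was found before S100a8 and S100a9 and in 40.7% of all windows. S100a11 had 3 GC boxes (35.7% of all windows held 1 or more) and a pair of AP-1 motifs (7.81%). Of the 9 S100 windows, 3 held a GC box and 2 an AP-1 motif. The others were S100a9, with a GC box, and S100a16, with both in 1 of its windows. The windows of S100a6, S100a1 and S100a13 held no match to any motif searched. The CRE (TGACGTCA) and the CArG box of serum response factor, held by 1.79% and 1.63% of all windows, had no match in any of the 9 S100 windows. The 300-base window of S100a11 was 61.7% G or C with 15 CpG pairs, while those of S100a8 and S100a9 were 50% and 51.3% with 4 and 2 pairs, beside medians of 52.7% and 7 over all windows. These matches describe the letters only.

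S100a1 and S100a13 face away from each other, and their RefSeq starts are 105 bases apart. The 104 bases between the starts are shown because these were the only S100 genes higher at an adjusted p below 0.05 in edgeR. On the plus strand the bases read as follows.
S100a1 to S100a13 (chr3:90514331-90514434, plus strand): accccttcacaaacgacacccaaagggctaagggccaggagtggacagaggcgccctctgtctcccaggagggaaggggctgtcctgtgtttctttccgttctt
None of the motifs searched lay in this stretch. GENCODE starts its longest S100a1 model further upstream, so that 62 of these bases belong to that model. The windows of S100a1 and S100a13 were 61.0% and 59.3% G or C, with 11 and 14 CpG pairs.

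S100a8 encodes the smaller subunit of calprotectin (chromosome 3, 90668978 to 90670035). Its level was 161, 123 and 167 CPM in vehicle replicates 1 to 3 and 59.3, 28.9 and 22.2 CPM in treated replicates 1 to 3, the order used for every gene that follows. The groups did not overlap, and I/R+Rk2 replicate 1 was the highest treated liver. The means were 150 ± 24.3 and 36.8 ± 19.8 CPM (SD, n = 3 livers), or 4.08-fold lower after treatment (log2 ratio -2.03, SE 0.35, adjusted p of 0.00425 in edgeR).

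S100a9 encodes the other subunit, which carries a longer C-terminal tail (chromosome 3, 90692632 to 90695721). Vehicle livers held 215, 176 and 215 CPM and treated livers 71.2, 41.0 and 35.2 CPM, with I/R+Rk2 replicate 1 again the highest of its group. This was 4.11-fold lower (log2 ratio -2.04, SE 0.26, adjusted p of 0.00146 in edgeR). Without I/R+Rk2 replicate 1 the log2 ratios were -2.56 for S100a8 and -2.41 for S100a9. The treated livers varied more than the vehicle livers: the coefficient of variation of S100a8 was 16.2% in I/R and 53.8% in I/R+Rk2, and that of S100a9 was 11.3% and 39.3%.

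The balance of the calprotectin subunits did not shift by more than the spread between livers. The FPKM ratio of S100a9 to S100a8 was 1.27, 1.36 and 1.22 in vehicle livers and 1.14, 1.35 and 1.5 in treated livers. The means of 1.28 ± 0.0725 and 1.33 ± 0.181 gave a difference of 0.04 on the log2 scale (two-sided exact permutation p = 0.9, where 3 livers against 3 cannot go below 0.1). Calprotectin transcripts made up 49.4% to 54.3% of the summed FPKM of the 9 genes in I/R and 18.8% to 35.8% in I/R+Rk2.

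Markers of neutrophils and monocytes moved alongside, and their part in the S100 values was not tested. Of 19 neutrophil markers, 16 were past the threshold and lower, with a median log2 ratio of -2.22, and none was at 0 in all livers. The 4 with the smallest p were Slfn4 (-3.37), Clec4e (-3.10), Trem1 (-2.79) and Cxcr4 (-2.77). Their summed level was 675 to 856 CPM in I/R and 399 to 467 CPM in I/R+Rk2. Wfdc21, which was named after its values were seen, took a large share of that sum and did not pass (298 ± 61.2 against 329 ± 58.1 CPM). Without it the sums were 460, 439 and 498 CPM in vehicle livers and 157, 89.0 and 72.6 CPM in treated livers, so that I/R+Rk2 replicate 1 was the highest treated liver here too. Of 16 monocyte markers, 14 were past the threshold and lower, with a median of -3.19, led by Ccr2 (-4.41), Vcan (-5.61), Ms4a6c (-4.33) and F13a1 (-5.15). They summed to 1679 to 2000 CPM in I/R and 1157 to 1217 CPM in I/R+Rk2, and without Fn1, also named afterwards, to 256 to 280 and 41.7 to 46.0 CPM. Among 10 other antimicrobial and granule genes of neutrophils, 6 could be tested and 4 were past the threshold and lower, namely Lcn2 (-3.70), Lyz2 (-1.86), Mmp8 (-2.22) and Mmp9 (-1.14), of which Mmp8 is also one of the neutrophil markers. Mmp9 kept its call in 10 of 16 alternative settings and lost it without I/R replicate 1 or 3 and without I/R+Rk2 replicate 2 or 3. The summed level of the granule genes was 741 to 1024 CPM in I/R and 96.7 to 147 CPM in I/R+Rk2, and without Lcn2, which was left out after its values were seen, 212 to 277 and 56.4 to 85.1 CPM. Camp and Mpo, other genes of neutrophil granules, were at 0 in all livers.

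Extracellular S100A8 and S100A9 signal through TLR4 with its co-receptors and through the receptor RAGE. Of 10 receptor and adaptor genes, 9 were tested, 6 were past the threshold and lower and none was higher, with a median log2 ratio of -1.54. Tlr4 was found at 7.19, 7.14 and 6.62 CPM in vehicle livers and at 1.3, 0.237 and 0.860 CPM in treated livers, where it rested on 31, 8 and 14 counts (log2 ratio -3.18, SE 0.48, adjusted p of 0.00261 in edgeR). Cd14, which hands ligands to TLR4, was at 112, 154 and 131 CPM without Rk2 and at 26.4, 14.2 and 17.7 CPM with it (log2 ratio -2.77, SE 0.24, adjusted p of 0.000458 in edgeR). Ly96, the extracellular partner of TLR4, fell by 1.54 on the log2 scale, and Myd88, its intracellular adaptor, fell by 0.83 with an adjusted p below 0.05 (edgeR, 0.0012) but a fold under the limit. Emb and Mcam, which encode other cell-surface receptors for these proteins, had log2 ratios of -2.08 and -1.08, and Cd68 one of -2.43. Mcam fell under the fold limit without I/R+Rk2 replicate 3 and in both limma fits with a pseudocount of 1. Bsg (0.25) and Cd36 (0.35) did not pass, with edgeR adjusted p-values of 0.0738 and 0.25. Ager, the gene of RAGE, had 0 counts in 5 livers and 5 counts in I/R+Rk2 replicate 2, and was not tested.

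**Figure D3:**
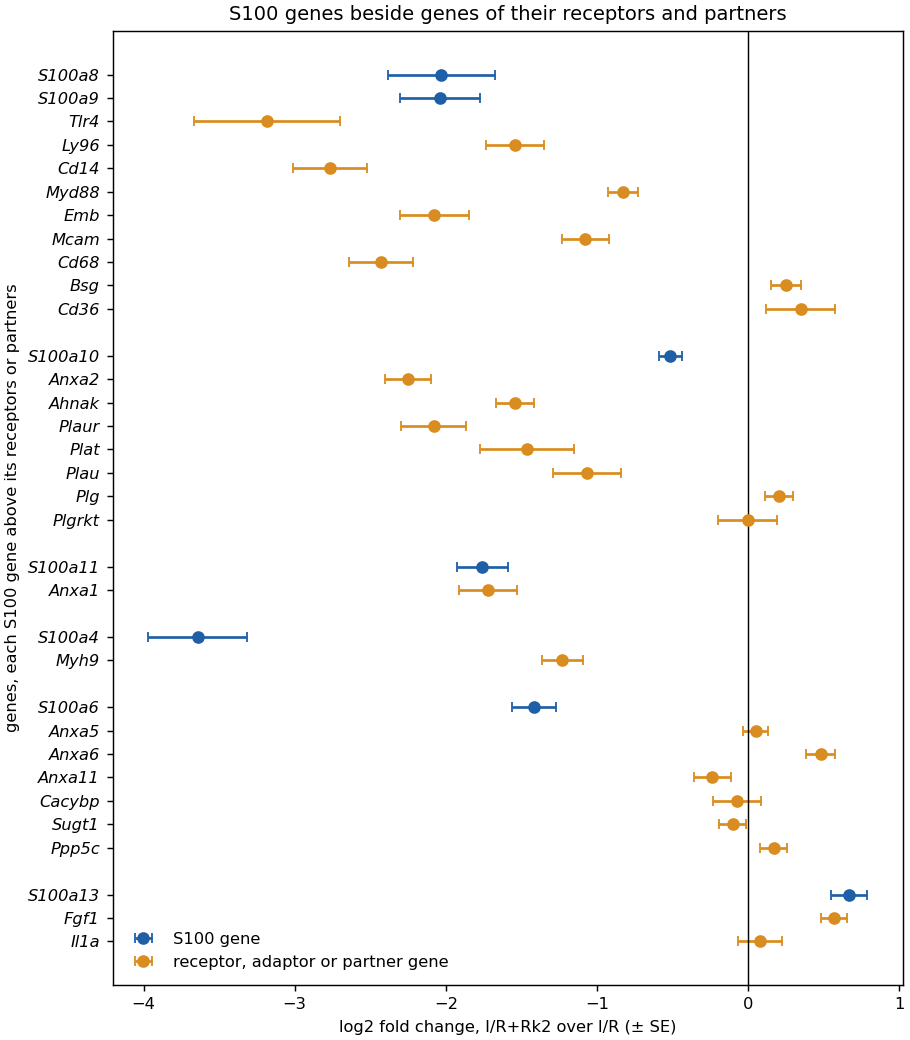
Log2 fold change of I/R+Rk2 over I/R with its standard error (horizontal axis) for 7 S100 genes in blue, each set above receptor, adaptor or partner genes in orange. Tlr4, Cd14 and Emb lie at -2.08 or below beside S100a8 and S100a9, Anxa2 at -2.25 lies well below S100a10 at -0.51, and Anxa1 at -1.72 lies beside S100a11 at -1.76.

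S100a4 encodes a protein that binds non-muscle myosin and is made by fibroblasts and leukocytes (chromosome 3, 90603771 to 90606045). Vehicle livers held 6.36, 6.17 and 8.01 CPM, and treated livers 0.546, 0.740 and 0.246 CPM. Every treated liver lay far below every vehicle liver, but the treated values rest on 13, 25 and 4 counts. The fall of 12.5-fold was the furthest among the 9 genes (log2 ratio -3.64, SE 0.33, adjusted p of 0.000484 in edgeR). Its exons share 302 bases with Gm42674 on the same strand, a gene listed at 0 FPKM in all 6 livers. Myh9, the heavy chain of non-muscle myosin, fell from 383 ± 29.9 to 163 ± 26.5 CPM (log2 ratio -1.23, adjusted p of 0.000869 in edgeR). Of 12 stellate cell and fibroblast markers, 2 were past the threshold and lower and none was higher, against 11.4% and 3.17% of all genes tested. Their median was -0.21, with summed levels of 214 to 250 CPM in I/R and 167 to 236 CPM in I/R+Rk2. None of them was past it in either limma fit of FPKM with a pseudocount of 1, and 1 was with a pseudocount of 0.1.

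S100a6 encodes calcyclin, which binds the ubiquitin-pathway protein encoded by Cacybp (chromosome 3, 90612882 to 90624181). Its level of 16.2, 12.8 and 15.3 CPM in vehicle livers compared with 5.59, 4.91 and 6.08 CPM in treated livers, without overlap. Expression was 2.68-fold lower after treatment (log2 ratio -1.42, SE 0.15, adjusted p of 0.00071 in edgeR). Cacybp (-0.07) and Sugt1 (-0.10), a co-chaperone that also binds S100A6, did not pass, with edgeR adjusted p-values of 0.724 and 0.378. Of 9 cholangiocyte markers, which label the bile duct cells, 2 were past the threshold and lower (Spp1 at -1.20 and Cldn7 at -1.23) and 1 was higher (Cldn4 at 1.55). Their median was -0.45, with 5 log2 ratios below 0 and 4 above, and summed levels of 176 to 242 CPM in I/R and 101 to 142 CPM in I/R+Rk2. Spp1 took most of that sum in each liver (162 ± 29.7 against 70.6 ± 14.1 CPM), so the lower sum does not mean that the markers fell as a group. The count of 3 fell to 1 without I/R replicate 1, 2 or 3, with the replicate number as a block and in both limma fits with a pseudocount of 1, to 2 without I/R+Rk2 replicate 2 or 3, and the median was 0.04 without I/R+Rk2 replicate 2.

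S100a11 encodes a partner of annexin A1 (chromosome 3, 93520488 to 93526287). Counts of 38.8, 33.9 and 36.1 CPM in vehicle livers stood against 13.5, 8.88 and 9.76 CPM in treated livers, where I/R+Rk2 replicate 1 was the highest. The treated mean was 3.39-fold lower (log2 ratio -1.76, SE 0.17, adjusted p of 0.000573 in edgeR). Anxa1 was at 17.7, 16 and 17.8 CPM without Rk2 and at 6.22, 3.82 and 5.71 CPM with it (log2 ratio -1.72, SE 0.19, adjusted p of 0.000919 in edgeR).

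S100a10 encodes p11, which binds annexin A2 in a complex at the cell membrane that captures plasminogen and its activators (chromosome 3, 93555080 to 93564643). It was abundant in both groups, at 278, 257 and 268 CPM in vehicle livers and 185, 195 and 182 CPM in treated livers. The livers of each group lay close together, with coefficients of variation of 3.86% and 3.74%, so that a fall of 1.43-fold was well separated (log2 ratio -0.51, SE 0.08, adjusted p of 0.00272 in edgeR). Anxa2 fell further, from 97.8, 79.8 and 88.1 CPM in vehicle livers to 22, 15.4 and 18.4 CPM in treated livers (log2 ratio -2.25, SE 0.15, adjusted p of 0.00024 in edgeR). The FPKM ratio of S100a10 to Anxa2 was 6.09, 8.35 and 8.09 in vehicle livers and 20.5, 30.6 and 20.9 in treated livers. All treated livers lay above all vehicle livers in this ratio, a difference of 1.66 on the log2 scale with a two-sided exact permutation p of 0.1, the smallest that 3 against 3 allow.

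Ahnak, a large scaffold protein gene whose product binds the p11 and annexin A2 complex, fell by 1.54 on the log2 scale (adjusted p of 0.000366 in edgeR). The deposited FPKM values of Ahnak were closer together, at 4.16, 4.39 and 5.29 in vehicle livers and 3.24, 3.30 and 2.40 in treated livers, and in limma its log2 ratio was -0.62 with a pseudocount of 0.1 and -0.50 with 1, under the fold limit. In the plasminogen system that this complex serves, the urokinase receptor gene Plaur (-2.08), the tissue activator gene Plat (-1.46) and the urokinase gene Plau (-1.06) were lower and past the threshold. Plg, the hepatocyte gene of plasminogen itself (2140 ± 67.3 against 2466 ± 74.8 CPM), and Plgrkt (2.35 ± 0.293 against 2.34 ± 0.0869 CPM) did not pass, with edgeR adjusted p-values of 0.114 and 0.987.

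S100a1, which is best known from heart muscle, was 1 of the 2 genes higher at an adjusted p below 0.05 in edgeR (chromosome 3, 90511034 to 90514392). Vehicle livers held 64.0, 67.0 and 73.2 CPM, and treated livers 81.4, 97.2 and 100.1 CPM. The groups were apart, with I/R+Rk2 replicate 1 the lowest treated liver. Treatment went with a 1.36-fold higher mean (log2 ratio 0.45, SE 0.11, adjusted p of 0.0137 in edgeR). It stayed above 0 under each other scaling, but its adjusted p was above 0.05 with library size alone (0.29, edgeR adjusted p = 0.0597). The same held in both limma fits of FPKM that kept genes with a mean of at least 1 (adjusted p = 0.0519 and 0.0524). It also held without I/R replicate 1 (0.42, edgeR adjusted p = 0.0512).

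S100a13, whose product takes part in the export of FGF1 and interleukin-1 alpha, proteins that have no signal peptide, was the other (chromosome 3, 90514435 to 90524581). Levels of 8.92, 9.25 and 9.97 CPM in vehicle livers rose to 15.6, 15.7 and 13.4 CPM in treated livers, again without overlap. The mean was 1.59-fold higher (log2 ratio 0.67, SE 0.12, adjusted p of 0.00436 in edgeR). Fgf1 rose as well, from 51.7 ± 1.55 to 76.6 ± 5.57 CPM (log2 ratio 0.57, adjusted p of 0.00261 in edgeR). Il1a did not pass (8.61 ± 0.747 against 9.07 ± 1.32 CPM, edgeR adjusted p = 0.693).

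S100a16 stood at 12.1, 10.9 and 9.01 CPM in vehicle livers and at 12.2, 11.4 and 20.9 CPM in treated livers (chromosome 3, 90537254 to 90543151). The groups overlapped, and I/R+Rk2 replicate 3 stood well above the other 5 livers. Its log2 ratio of 0.47 (SE 0.25) did not pass (adjusted p of 0.17 in edgeR), and without that liver it was 0.15.

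Of the 17 partner genes tested from a list of 19, 7 were past the threshold and lower, against 11.4% of all genes tested. They were Anxa1, Anxa2, Ahnak, Myh9, Plat, Plau and Plaur. None was higher, and the median log2 ratio of the list was -0.10. The count was 4 in both limma fits of FPKM with a pseudocount of 1 and 5 with a pseudocount of 0.1, and Plau missed the fold limit without I/R+Rk2 replicate 2. Annexins did not move as one group. Anxa6 rose (0.48, edgeR adjusted p = 0.00667) while staying under the fold limit, though not in limma with a pseudocount of 0.1 (0.30, adjusted p of 0.0505), and Anxa5 (0.05) and Anxa11 (-0.24) did not pass, with edgeR adjusted p-values of 0.648 and 0.15. Ppp5c, a phosphatase gene, did not pass (0.17, edgeR adjusted p = 0.167).

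**Figure D4:**
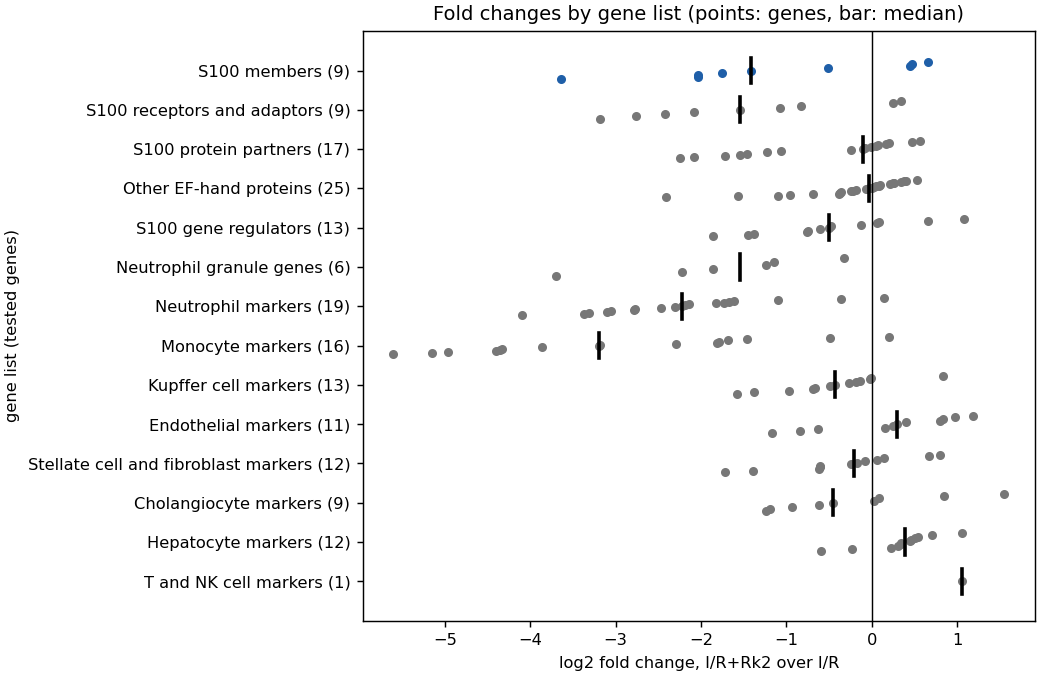
Log2 fold change of I/R+Rk2 over I/R (horizontal axis) of each tested gene in the 9 S100 genes, in blue, and in the 13 other lists, in grey, with the median of each list as a black bar and the number of tested genes in brackets. Most points of the neutrophil and monocyte lists lie left of 0 (medians -2.22 and -3.19), while the other EF-hand proteins centre near 0 (median -0.03).

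Compared per transcript length, the order of the S100 genes differed between the groups. In I/R, S100a10 (400 ± 39.8 FPKM) and S100a9 (392 ± 60.7 FPKM) led and overlapped, and S100a9 overlapped S100a8 (308 ± 59.0 FPKM), though it was above it in all 3 livers. S100a1 (99.7 ± 3.99 FPKM), S100a11 (70.7 ± 9.34 FPKM) and S100a6 (23.9 ± 7.99 FPKM) followed, each apart from the next. S100a4 (13.7 ± 1.68 FPKM), S100a13 (13 ± 0.491 FPKM) and S100a16 (11.4 ± 2.94 FPKM) came last and overlapped. In I/R+Rk2, S100a10 led alone at 250 ± 11.8 FPKM, and S100a1 came next at 122 ± 10.2 FPKM, overlapping S100a9 at 85.6 ± 36.5 FPKM. S100a8 followed at 67.7 ± 38.5 FPKM, below S100a9 in all 3 livers, then S100a11 (18.7 ± 4.77 FPKM), S100a13 (18.5 ± 2.04 FPKM) and S100a16 (12.9 ± 4.13 FPKM), each overlapping its neighbour in these last 3. S100a6 at 7.61 ± 1.0 FPKM and S100a4 at 0.976 ± 0.436 FPKM stood last and apart. Per kilobase of GENCODE exons, CPM gave 4 genes another rank in I/R, where S100a9 (387 CPM per kilobase) stood above S100a10 (221 CPM per kilobase) and S100a6 (10.8 CPM per kilobase) fell below S100a13 (13.1 CPM per kilobase) and S100a4 (11.7 CPM per kilobase).

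**Figure D5:**
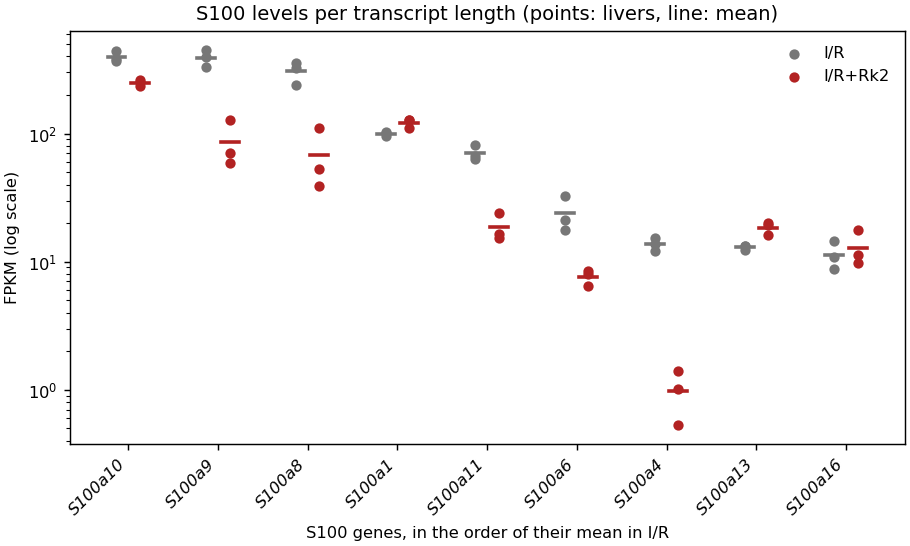
FPKM of the 9 S100 genes on a log scale, in the order of their means in I/R, with 1 point for each liver and a line at the group mean (I/R in grey, I/R+Rk2 in red). S100a1 has rank 4 of the 9 genes in I/R at 99.7 FPKM and rank 2 in I/R+Rk2 at 122 FPKM, while S100a4 drops from 13.7 to 0.976 FPKM.

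The FPKM table lists 8 further S100 family genes, and 4 of them were at 0 in all livers. S100g, the gene of an intestinal calcium carrier, was the 1 that reached 1 FPKM in any liver. Its 14, 24 and 17 counts in vehicle livers and 8, 13 and 0 in treated livers did not differ past the threshold (log2 ratio -1.53, adjusted p of 0.0931 in edgeR). S100a14 had at most 10 counts in a liver, S100a3 at most 5 and S100b 5 in a single liver, too few for a test.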

How the data were processed

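Liver RNA (250 ng per library, MGI kit) from 6 mice was sequenced by the authors. Per the submitters' processing notes, reads were checked with FastQC 0.11.5, aligned to mm10 with HISAT2 2.2.1 and quantified with StringTie 1.3.3. The annotation and strand setting are not given in the sources used here. The authors deposited whole-number counts per gene, not normalised, and FPKM per gene. A column of summed counts was not used in tests.

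The main test was edgeR 4.0.16 under R 4.3.3, run on the 6 libraries with filterByExpr, TMM scaling and the quasi-likelihood F test, with no covariate and with Benjamini-Hochberg adjustment over all tested genes. Standard errors are the absolute log2 ratio over the square root of F. DESeq2 1.42.0, which the study used, and limma 3.58.1 on log2(FPKM + 1), log2(FPKM + 0.1) and unfiltered values were alternatives, with other scalings, other filters, the replicate number as a block and each library left out. The fits were also run on simulated counts, in which a small set of well-counted genes held equal numbers of rises and falls. In the measured data most genes past the threshold were lower, so the simulation does not cover that setting. There limma was given scaled counts, so its fits of FPKM were not tested. Libraries of one group differed beyond sampling noise (chi-square per degree of freedom 31.4 to 74.8), which does not by itself show that they came from separate animals. The samples are labelled as numbered mouse livers, and each was taken as 1 mouse and counted as 1 replicate.

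The S100 genes and the 13 gene lists were chosen with earlier results of these data known. All S100 genes and tested receptors and partners may be named, and from other lists at most 4 genes, those with the smallest p. With 3 counts as the floor, levels down to 0.0888 to 0.184 CPM could be seen, counting error only. Gene positions are from GENCODE M21 and promoters from RefSeq, both GRCm38, the build named mm10.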

Additional observations from a re-analysis of the deposited data

How the results depend on the processing

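Under 16 alternative settings every S100 gene kept its direction, and S100a4, S100a6, S100a8, S100a9 and S100a11 stayed past the threshold in each one that could test them (S100a4 was left out by the filter of at least 10 counts in every library). S100a1 lost its adjusted p with library size alone (0.287), and in limma on FPKM values averaging 1 or more, with a pseudocount of 1 (0.285) or 0.1 (0.287). Leaving out single livers gave it log2 ratios between 0.397 and 0.526, with an edgeR adjusted p above 0.05 without I/R replicate 1. Library size alone moved the median of all genes to -0.17 and those FPKM fits to -0.12 and -0.15, and relative to these medians S100a1 stood at 0.46, 0.41 and 0.43. The count of genes past the threshold was 1813, and 901 with limma at the pseudocount of 1 with that filter and 921 with no filter, and 89.7% and 91.1% of those were lower against 78.3% in edgeR. With CPM per kilobase of GENCODE exons in place of FPKM, 4 S100 genes took another rank in I/R and 0 did in I/R+Rk2. With the replicate block, 1690 genes and the same number of S100 genes, 5, were past the threshold. Same-numbered livers did not deviate together (correlations of -0.03, 0.05 and -0.02), but with 3 livers a group this cannot show whether they were handled as pairs. With 3 livers a group, small differences in low-count genes such as S100a4 in treated livers are poorly bounded. With the filter of at least 10 counts in every library, which tests fewer genes, 9 in place of 14 monocyte markers and 12 in place of 16 neutrophil markers were past the threshold.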

Other observations

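Other EF-hand proteins were followed for comparison. Of 30 listed, 25 were tested, with a median log2 ratio of -0.03. Past the threshold 3 were lower (Efhd2 at -1.56, Rcn1 at -1.10 and Ncs1 at -2.41) and none was higher. That is near the shares over all genes tested, 11.4% lower and 3.17% higher. Actn1, an actin cross-linker, fell by 0.69 on the log2 scale (edgeR adjusted p = 0.0019) and stayed under the fold limit. Pvalb, Calb1 and Calb2, genes of calcium buffers, were at 0 in all livers.

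Among 13 transcription factor genes linked to S100 transcription, 3 were past the threshold and lower and 1 was higher, with a median of -0.50. Hif1a, the oxygen-regulated factor, fell from 123 ± 6.13 to 44.9 ± 6.61 CPM (log2 ratio -1.45, adjusted p of 0.00042 in edgeR), and Spi1, which encodes the myeloid factor PU.1, fell from 16.4 ± 2.45 to 4.50 ± 1.31 CPM (log2 ratio -1.86, adjusted p of 0.00113 in edgeR). Stat3 fell by 0.76 on the log2 scale and Cebpa rose by 0.66, both under the fold limit. Klf5 was the third that fell (-1.38), on 5 to 21 counts a liver, and Cebpe the one that rose (1.08), both named after their values were seen. The count of 4 fell to 2 without I/R+Rk2 replicate 2 and in the 3 limma fits of FPKM, and Klf5 kept its call in 4 of the 13 alternatives that could test it.

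Of 13 Kupffer cell markers, with a median of -0.43, 1 was past the threshold and lower, against 11.4% of all genes tested. That count was 3 without I/R replicate 2 and with library size alone, 2 without I/R+Rk2 replicate 1 or 2 and in DESeq2, and 0 in both limma fits with a pseudocount of 1. Of 11 endothelial markers, with a median of 0.30, 1 was past the threshold and lower and 1 higher, against 11.4% and 3.17% of all genes tested. There was 1 in all in the limma fits, and 3 without I/R replicate 2 or 3, with library size alone and with upper-quartile scaling. Of 12 hepatocyte markers, 8 were higher and 1 lower at an adjusted p below 0.05 in edgeR (median 0.39), and 1 of those higher was also past the fold limit. That 1 fell under the limit in the limma fits, when only library size was used for scaling, and when either I/R replicate 1 or I/R+Rk2 replicate 2 was dropped. Among 12 T and NK cell markers Cd4 alone could be tested. Its log2 ratio of 1.06 did not pass and was 0.04 without I/R+Rk2 replicate 1, which held 65 of its counts against 7 to 29 in the other livers.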
